A study of Saccharomyces cerevisiae with 24 samples.

Results

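NHP6A and the other high mobility group (HMG) box and FACT genes of Saccharomyces cerevisiae were followed in a pooled competition of gene-bearing plasmids. The rule named 9 genes by systematic name. Of these, 6 had a row in the barcode count table, out of 4871 rows for 4817 genes: NHP6A (YPR052C), SPT16 (YGL207W), POB3 (YML069W), HMO1 (YDR174W), NHP10 (YDL002C) and ROX1 (YPR065W). The other 3, NHP6B (YBR089C-A), ABF2 (YMR072W) and IXR1 (YKL032C), are not analysed here. NHP6A was chosen by the direction of its barcode's change between generation 0 and generation 10, which differed between the laboratory strain and the wild strains, so that change is described below without a test. The other 8 genes were added as its relatives by protein family or complex, with earlier results of these data known.

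The 4 diploid strains carried the MoBY 2.0 library, in which each high-copy plasmid holds an S288C gene with its native flanking sequence and a DNA barcode. They were BC187 (Wine/European lineage), NCYC3290 (West African), YPS128 (North American) and the laboratory strain BY4743, which carries auxotrophic marker deletions. Each strain's pool was sampled in biological triplicate after 10 generations (Gen10) and at the start (Gen0), which gave 24 libraries in 8 groups. The cultures grew for 10 generations in YPD with G418, which selects for the plasmid, and 0.7 M NaCl. The Gen0 samples, whose titles also name NaCl, were taken before that growth. No culture grown for 10 generations without salt was among the samples, so a change could not be assigned to the salt. The paper reports from past work that the laboratory strain carries more copies of the library plasmid per haploid genome than the wild strains. Plasmid copies per cell were not measured in these libraries, so copy number and strain background cannot be told apart.

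HMG-box proteins bind the minor groove of DNA and bend it. FACT is a histone chaperone that loosens nucleosomes ahead of the RNA and DNA polymerases and helps to rebuild them behind. In yeast it is a dimer of Spt16 and Pob3, both essential for growth, and the small HMG-box proteins Nhp6A and Nhp6B supply DNA binding that this dimer lacks. The other HMG-box genes act elsewhere. HMO1 encodes a protein of the ribosomal DNA and of ribosomal protein gene promoters. NHP10 encodes a subunit of the INO80 chromatin remodeller, and ROX1 and IXR1 encode regulators of genes that respond to low oxygen. ABF2 encodes the packaging protein of mitochondrial DNA.

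In the reference genome (R64) the NHP6A reading frame lies on the minus strand at chrXVI:665693-665974 and spans 282 bases, or 93 codons before the stop. It is shown because all 4 strains were transformed with the same library of S288C genes. Only barcodes were counted, and the inserts were not sequenced here. The start and stop codons are in capitals, and the sequence is that of the RefSeq R64 assembly.
NHP6A reading frame: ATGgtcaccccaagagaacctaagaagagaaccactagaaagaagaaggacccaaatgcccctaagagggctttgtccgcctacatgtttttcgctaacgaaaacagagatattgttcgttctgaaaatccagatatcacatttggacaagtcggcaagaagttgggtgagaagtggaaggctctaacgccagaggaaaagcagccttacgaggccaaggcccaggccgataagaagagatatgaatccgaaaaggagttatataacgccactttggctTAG
An uncharacterised reading frame, YPR053C (chromosome XVI, 665788 to 666243), overlaps NHP6A and had no row. SPT16 lies on chromosome VII (98969 to 102076), POB3 on chromosome XIII (135500 to 137158), HMO1 on chromosome IV (812110 to 812850), NHP10 on chromosome IV (446967 to 447578) and ROX1 on chromosome XVI (679693 to 680799).

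Depth and replicate spread differed between strains. Total reads ran from 4615027 to 30699608 per library. At Gen10 a few barcodes, led by that of the kinase gene HAL5, took most reads in NCYC3290 and YPS128. HAL5 alone held 54.5% to 61.3% of reads in NCYC3290 and 72.9% to 84.8% in YPS128. Outside 25 such dominant genes, the Gen10 libraries held 501261 to 1868859 reads in NCYC3290 and 1679115 to 5010411 in YPS128, against 11962164 or more in BC187 and BY4743. Normalised reads are reads per 1000000 of this remaining total. Replicates of BC187 and BY4743 were close, with biological coefficients of variation of 0.110 and 0.126. Those of NCYC3290 (0.856) and YPS128 (0.539) were far apart, mainly at Gen10. Each coefficient covers both generations. Between Gen10 replicates the chi-square per degree of freedom was 818 to 1266 in NCYC3290 and 538 to 1010 in YPS128. Between Gen0 replicates it was 11.85 to 20.7 and 13.95 to 85.8. Over all genes tested the median Gen10-over-Gen0 change, on the log2 scale, was -1.58 in NCYC3290 and -0.56 in YPS128, and -0.05 in BC187 and 0.01 in BY4743.

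In normalised reads NHP6A was more abundant after growth in all 3 wild strains and less abundant in BY4743. With all reads counted the sign turned in NCYC3290 and YPS128, as given below. In BC187 its barcode had 1342, 1344 and 1118 normalised reads at Gen10, against 174, 214 and 224 at Gen0. In NCYC3290 it had 1477, 716 and 875 at Gen10, against 227, 237 and 202 at Gen0. In YPS128 it had 669, 734 and 1544 at Gen10, against 248, 157 and 152 at Gen0. In each wild strain every Gen10 library lay above every Gen0 library. So did those of 31.3% of all genes tested in BC187, 3.45% in NCYC3290 and 9.67% in YPS128. BY4743 showed the opposite arrangement, with 112, 105 and 130 normalised reads at Gen10, against 226, 236 and 206 at Gen0. In that strain 28.7% of genes lay wholly below at Gen10.

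The fitted NHP6A log2 fold change in BC187 was 2.63 (SE 0.11). NCYC3290 had 2.21 (SE 0.62), YPS128 had 2.40 (SE 0.40) and BY4743 had -0.94 (SE 0.11). These correspond to levels 6.21-fold, 4.61-fold and 5.29-fold higher in the wild strains and 1.92-fold lower in BY4743. By replicate, the log2 score of a Gen10 library over its strain's mean Gen0 level ran from 1.69 to 3.05 in the 9 wild libraries and from -1.08 to -0.77 in the 3 of BY4743. Ranked by fold change, NHP6A stood 12th from the top of 4166 genes tested in BC187, 119th of 4171 in NCYC3290 and 69th of 4157 in YPS128. In BY4743 it stood 321st from the bottom of 4186.

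**Figure D1:**
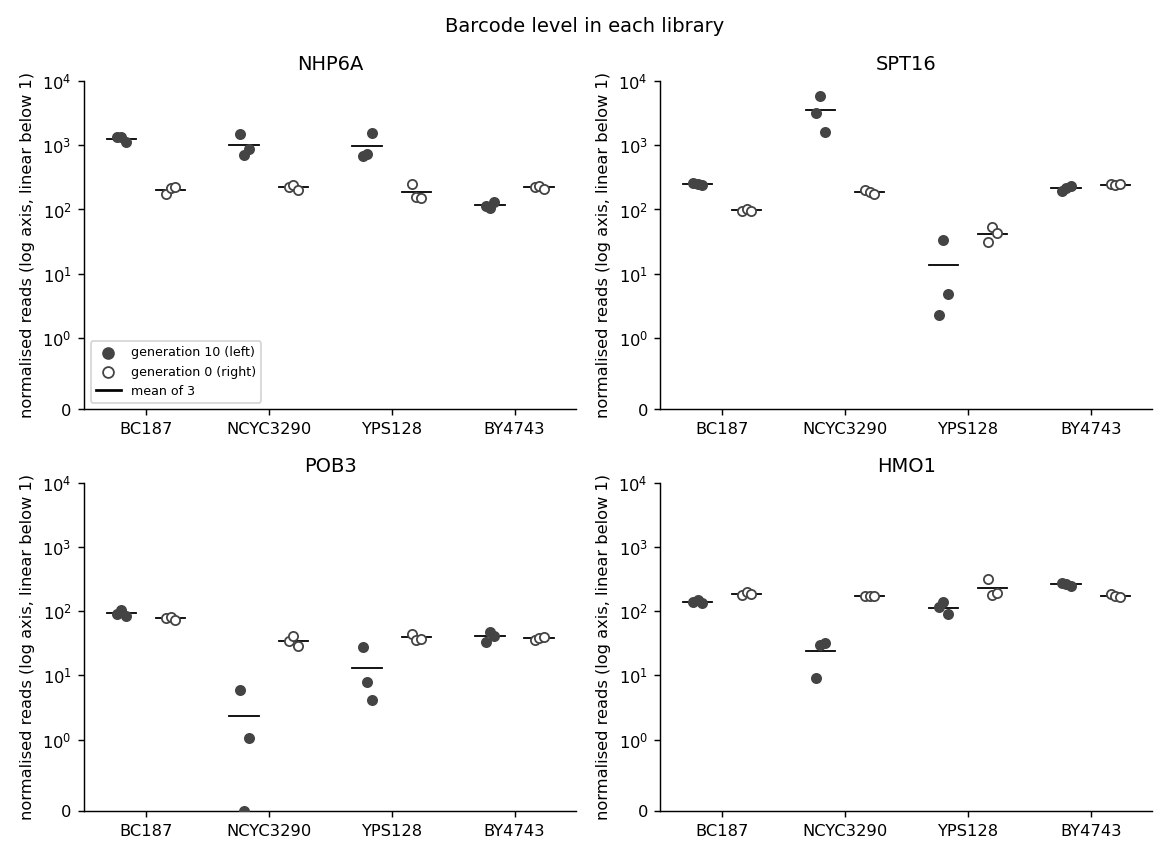
Normalised reads (y axis, logarithmic above 1) of 4 barcodes in each of 24 libraries, with Gen10 as filled points left of Gen0 as open points and bars at the mean of 3. NHP6A lies higher at Gen10 in BC187, NCYC3290 and YPS128 (716 to 1477 in NCYC3290, against 202 to 237 at Gen0) and lower in BY4743 (105 to 130 at Gen10, against 206 to 236 at Gen0).

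The size and sign of the NHP6A change in NCYC3290 and YPS128 depended on how libraries were scaled. As a share of all reads, dominant barcodes included, NHP6A held 0.00640%, 0.00778% and 0.00643% of the Gen10 libraries of NCYC3290, against 0.0225%, 0.0234% and 0.0200% at Gen0. In YPS128 the shares were 0.00625%, 0.0121% and 0.0127% at Gen10, against 0.0246%, 0.0156% and 0.0150% at Gen0. On this scale NHP6A lay below its start in both strains, with fitted log2 fold changes of -1.68 in NCYC3290 and -0.83 in YPS128, while in BC187 and BY4743 the values stayed at 2.59 and -0.95. TMM factors and DESeq2 size factors moved NHP6A the other way, to 4.32 and 4.84 in NCYC3290 and to 3.07 and 3.09 in YPS128. The median of all genes moved by -3.78 in NCYC3290 and -3.09 in YPS128 when all reads were counted. Relative to that median NHP6A lay 3.69 higher in NCYC3290 and 2.82 higher in YPS128 with all reads, against 3.79 and 2.96 with the total that leaves out dominant barcodes.

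**Figure D2:**
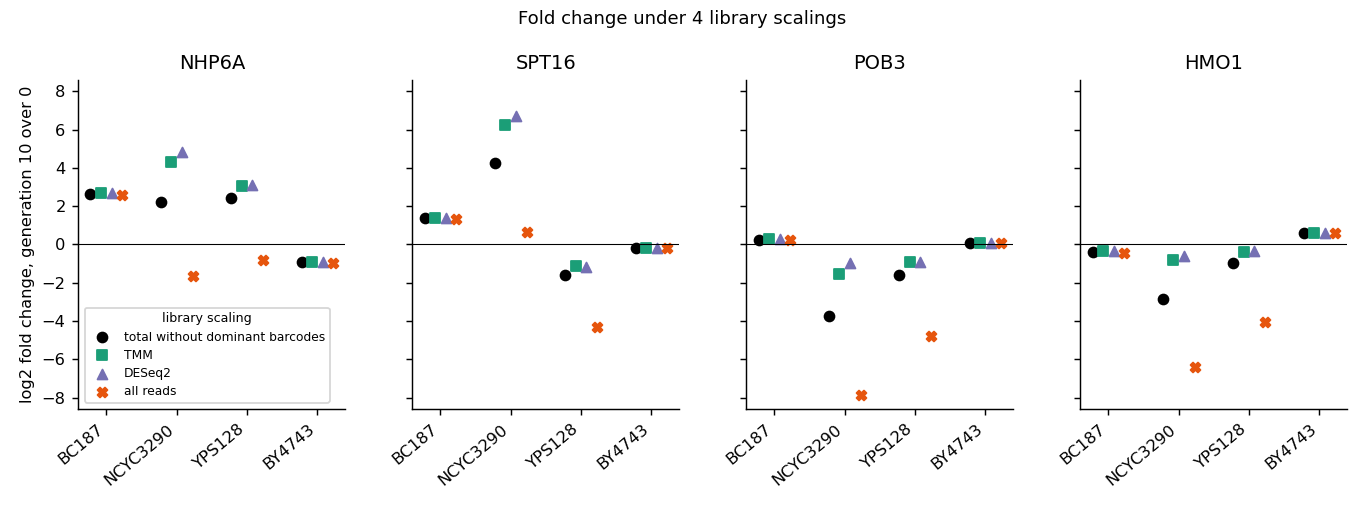
Log2 fold change of Gen10 over Gen0 (y axis) of 4 barcodes in each strain under 4 library scalings, named in the key. Scaling to all reads puts NHP6A at -1.68 in NCYC3290 and -0.83 in YPS128, below 0, and moves no value in BC187 or BY4743 across 0.

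A ratio of 2 barcodes within a library needs no scaling. NHP6A reads over HMO1 reads came to 9.53, 9.11 and 8.43 at Gen10 in BC187, against 0.985, 1.09 and 1.20 at Gen0. In NCYC3290 the ratio was 164, 23.9 and 27.3 at Gen10, against 1.32, 1.39 and 1.17 at Gen0, where the HMO1 reads at Gen10 were only 12, 15 and 60. In YPS128 it was 5.80, 5.34 and 17.4 at Gen10, against 0.796, 0.895 and 0.804 at Gen0. All 9 wild Gen10 libraries thus held more NHP6A than HMO1 reads, by a wider margin than any Gen0 library of their strain. In BY4743 the ratio was 0.411, 0.398 and 0.528 at Gen10, against 1.25, 1.36 and 1.22 at Gen0. The fitted HMO1 value had the opposite sign to that of NHP6A in all 4 strains (with all reads counted, both were below 0 in NCYC3290 and YPS128), so the ratio combines both changes.

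Ratios to other barcodes differed. NHP6A reads over SPT16 reads were 4.59 to 5.36 at Gen10 in BC187, against 1.83 to 2.33 at Gen0. In NCYC3290 they were 0.124 to 0.542 at Gen10, against 1.12 to 1.27 at Gen0, so NHP6A lay lower relative to SPT16 there. In YPS128 they were 21.8 to 324 at Gen10, against 2.997 to 7.93 at Gen0, and in BY4743 0.486 to 0.576 at Gen10, against 0.832 to 0.990 at Gen0. Set against its genome neighbour MAK3, NHP6A was higher in every Gen10 library of BC187 (2.43 to 3.14, against 0.495 to 0.570 at Gen0) and NCYC3290 (1.06 to 67.8, against 0.616 to 0.731 at Gen0). The groups of YPS128 overlapped (0.864 to 4.74 at Gen10, against 0.408 to 0.915 at Gen0), and BY4743 was lower (0.345 to 0.456 at Gen10, against 0.705 to 0.777 at Gen0).

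The genes beside NHP6A in the genome had other profiles. MAK3 (chromosome XVI, 664960 to 665490), which encodes the catalytic subunit of an N-terminal acetyltransferase, ends 203 bases from it. Its log2 fold change was 0.27 in BC187 (SE 0.06, FDR 0.0031), 0.21 in NCYC3290 (FDR 0.90), 0.53 in YPS128 (FDR 0.32) and -0.005 in BY4743 (FDR 0.97). On the other side the nearest gene with a row was the exocyst gene SEC8, 1702 bases away. SEC8 fell in BC187 (log2 fold change -1.24, SE 0.17, FDR 0.00029) and was not called in NCYC3290 (0.44, FDR 0.81), YPS128 (-1.18, FDR 0.26) or BY4743 (-0.20, FDR 0.57). All FDR values are Benjamini-Hochberg adjusted over every gene tested in the strain, from edgeR's quasi-likelihood test.

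SPT16, the large subunit of FACT, rose in BC187 and NCYC3290 and was not called in the other strains. In BC187 its barcode had 254, 251 and 244 normalised reads at Gen10, against 95.0, 102 and 95.7 at Gen0. In NCYC3290 it had 3221, 5773 and 1614 at Gen10, against 203, 186 and 176 at Gen0. The Gen10 libraries lay above all Gen0 libraries in both strains. The log2 fold change was 1.35 (SE 0.07, FDR 5.6e-07) in BC187 and 4.23 (SE 0.73, FDR 0.0066) in NCYC3290, the 52nd highest of 4166 genes and the 34th of 4171.

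In YPS128 SPT16 had 2.29, 33.7 and 4.76 normalised reads at Gen10, against 31.3, 52.5 and 42.4 at Gen0. The groups overlapped through replicate 2 of Gen10, which held 169 of its 182 Gen10 reads. The fitted value was -1.61 (SE 1.07, FDR 0.30). Without that library it was -3.60 with an FDR of 0.0029, so 1 library decided the call. With all reads counted it was -4.33 (FDR 0.021). In BY4743 SPT16 had 195, 215 and 229 normalised reads at Gen10, against 248, 238 and 247 at Gen0. The Gen10 libraries all lay lower, with a log2 fold change of -0.20 (SE 0.08) that did not pass the test (FDR 0.081). It passed with an FDR of 0.031 without replicate 3 of Gen10, at a value of -0.25, and with an FDR of 0.039 under DESeq2.

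Library scaling bore on SPT16 in NCYC3290 as it did on NHP6A. When all reads were counted the log2 fold change there was 0.66 with an FDR of 0.43, and the call was lost. SPT16 held 0.0140%, 0.0627% and 0.0119% of all reads at Gen10, against 0.0201%, 0.0184% and 0.0175% at Gen0, so replicate 2 of Gen10 lay above the start and the other replicates below it. Relative to the median of all genes, the value was 5.81 with dominant barcodes left out and 6.03 with all reads.

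POB3 encodes the partner of Spt16, and its barcode did not follow that of SPT16. In NCYC3290 POB3 had 6.01, 0 and 1.07 normalised reads at Gen10, against 34.6, 41.2 and 28.7 at Gen0. Those Gen10 values rested on 8, 0 and 2 reads. The POB3 log2 fold change was -3.73 (SE 0.96, FDR 0.024), in the strain where that of SPT16 was 4.23. The call was lost, with FDR values from 0.064 to 0.075, when any 1 of the 3 Gen0 libraries was left out, though the value stayed between -3.87 and -3.61. It was also lost under TMM (-1.57, FDR 0.25) and DESeq2 (-0.98, FDR 0.49). The value lay 2.15 below the median of all genes.

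In the other strains POB3 was not called. In BC187 it had 91.8, 103 and 84.2 normalised reads at Gen10, against 79.3, 81.7 and 72.8 at Gen0. The groups did not overlap, but the log2 fold change of 0.25 (SE 0.11) had an FDR of 0.072. It came under 0.05 with TMM (0.041), with DESeq2 (0.025) and without replicate 3 of Gen10 (0.042). In YPS128 POB3 had 27.5, 7.78 and 4.17 normalised reads at Gen10, against 44.8, 35.7 and 37.3 at Gen0, with a fitted value of -1.58 (SE 0.90, FDR 0.24). In the 6 fits that each left out 1 library its FDR was 0.059 or more, but with all reads counted the value was -4.79 with an FDR of 0.0037. In BY4743 it had 33.4, 47.3 and 40.9 at Gen10, against 36.1, 38.7 and 39.6 at Gen0, and a log2 fold change of 0.09 (SE 0.18, FDR 0.73).

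**Figure D3:**
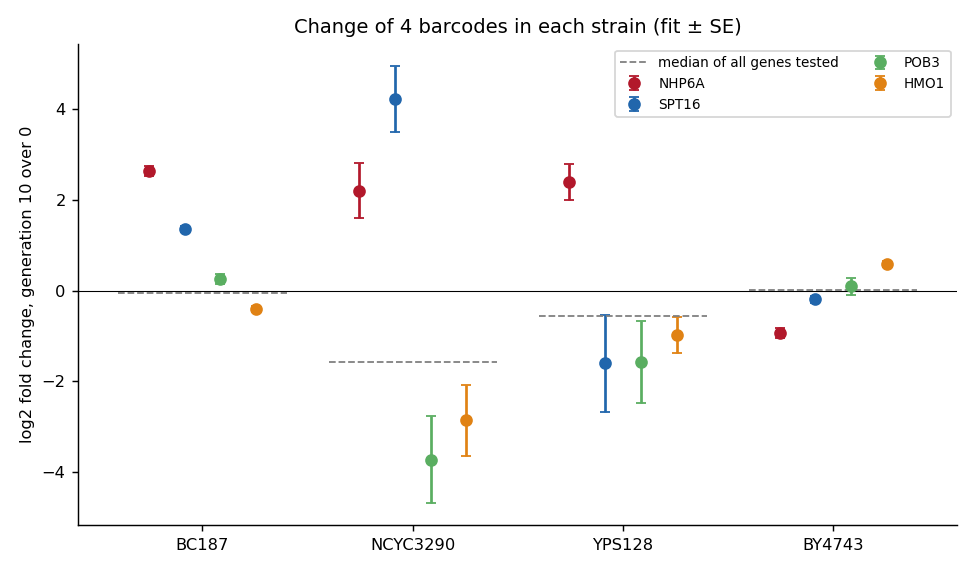
Log2 fold change of Gen10 over Gen0 (y axis) of 4 barcodes in each strain, as points with the standard error of the fit, and the median of all genes tested as a dashed line. SPT16 (4.23) and POB3 (-3.73) lie on opposite sides of the median in NCYC3290, and HMO1 lies above 0 in BY4743 (0.58).

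The ratio of the 2 FACT barcodes showed the same within libraries. SPT16 reads over POB3 reads came to 2.77, 2.44 and 2.89 at Gen10 in BC187, against 1.20, 1.25 and 1.31 at Gen0. In NCYC3290 the ratio was 536 and 1508 at Gen10 in the libraries with POB3 reads, against 5.87, 4.51 and 6.14 at Gen0. Both strains thus held relatively more SPT16 plasmid after growth. In YPS128 the values were 0.0833, 4.33 and 1.14 at Gen10, against 0.698, 1.47 and 1.14 at Gen0, and the groups overlapped. In BY4743 they were 5.85, 4.55 and 5.60 at Gen10, against 6.87, 6.15 and 6.25 at Gen0, lower in every Gen10 library. With 3 libraries against 3, a two-sided exact permutation test of such a ratio cannot give a p below 0.1, and none was run.

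**Figure D4:**
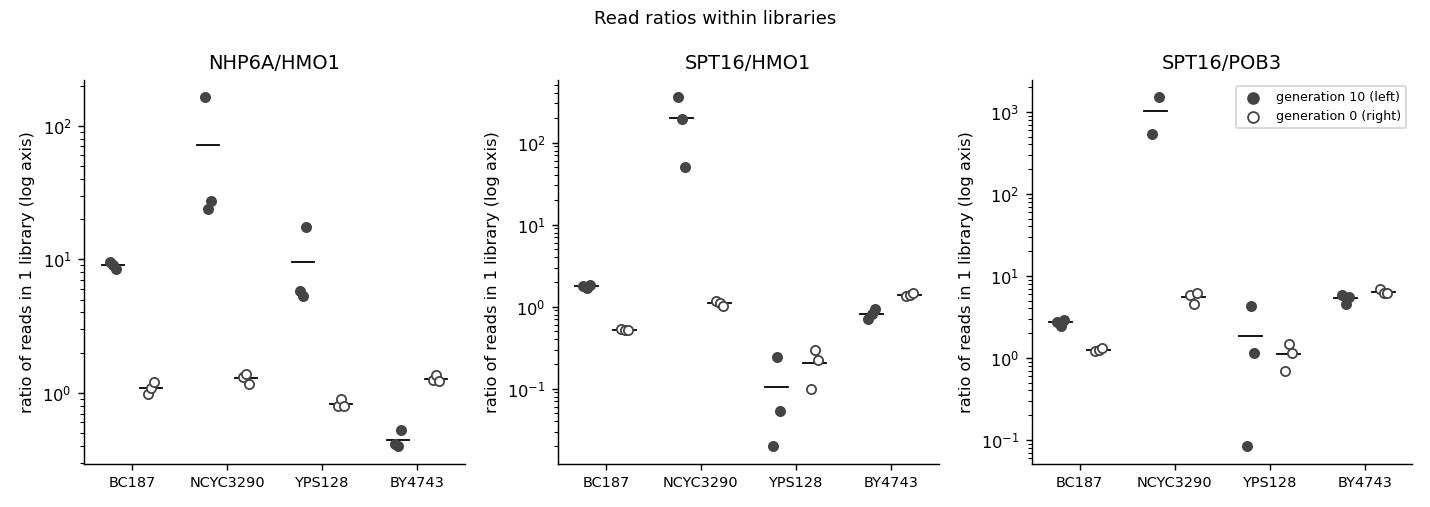
Ratio of the reads of 2 barcodes within a library (y axis, logarithmic) for NHP6A over HMO1, SPT16 over HMO1 and SPT16 over POB3, with Gen10 as filled points left of Gen0 as open points and bars at the mean. NHP6A over HMO1 is 5.34 to 164 in the wild Gen10 libraries and 0.398 to 0.528 in those of BY4743, and 1 Gen10 library of NCYC3290 without POB3 reads has no point in the last panel.

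HMO1, the ribosomal DNA and ribosomal protein promoter factor, rose in BY4743 and fell in BC187 and NCYC3290. In BY4743 it had 274, 263 and 247 normalised reads at Gen10, against 182, 173 and 168 at Gen0. The groups did not overlap, and the log2 fold change was 0.58 (SE 0.07, FDR 0.00075), the 123rd highest of 4186 genes. In BC187 it had 141, 148 and 133 normalised reads at Gen10, against 176, 196 and 186 at Gen0. The log2 fold change was -0.41 (SE 0.08, FDR 0.0015).

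In NCYC3290 HMO1 had 9.01, 29.9 and 32.1 normalised reads at Gen10, against 171, 170 and 172 at Gen0. The log2 fold change was -2.86 (SE 0.78, FDR 0.031), which was 1.28 below the median of all genes. The call was lost without any 1 of the 3 Gen0 libraries (FDR 0.137 to 0.140, values -2.86 to -2.85), under TMM (-0.84, FDR 0.46) and under DESeq2 (-0.61, FDR 0.31). In YPS128 HMO1 had 115, 137 and 88.7 normalised reads at Gen10, against 311, 176 and 189 at Gen0, all lower at Gen10. The log2 fold change of -0.98 (SE 0.40) had an FDR of 0.12, which was 0.045 without replicate 2 of Gen10, at a value of -1.14. With all reads counted the value was -4.04 (FDR 0.00085).

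Counted over the members other than NHP6A, 3 of 8 passed the filter on low counts. In BC187 1 rose (SPT16) and 1 fell (HMO1), where 28.5% of all genes tested rose and 38.1% fell. In NCYC3290 1 rose (SPT16) and 2 fell (POB3 and HMO1), where 1.89% of genes rose and 26.1% fell. In YPS128 edgeR called 0, where 4.11% of genes rose and 8.47% fell. The lowest unadjusted p of the 3 in the same edgeR fit was 0.038 (HMO1), and DESeq2 called 0. With library sizes from all reads edgeR called all 3 lower there, under which the median of all genes also moved by -3.09. The share of all genes called with those library sizes is not given here. In BY4743 1 rose (HMO1), where 18.2% of genes rose and 19.5% fell. With only 3 genes nothing was read from these counts. The groups of BC187 did not overlap for any of the 3, where 31.3% of genes lay wholly above at Gen10 and 40.8% wholly below. Those of NCYC3290 did not overlap for any of the 3 either, where 3.45% lay wholly above and 60% wholly below. In YPS128 POB3 and HMO1 lay wholly below, where 9.67% of genes lay wholly above and 45.1% wholly below. In BY4743 HMO1 lay wholly above and SPT16 wholly below, where 27.4% and 28.7% of genes did so.

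**Figure D5:**
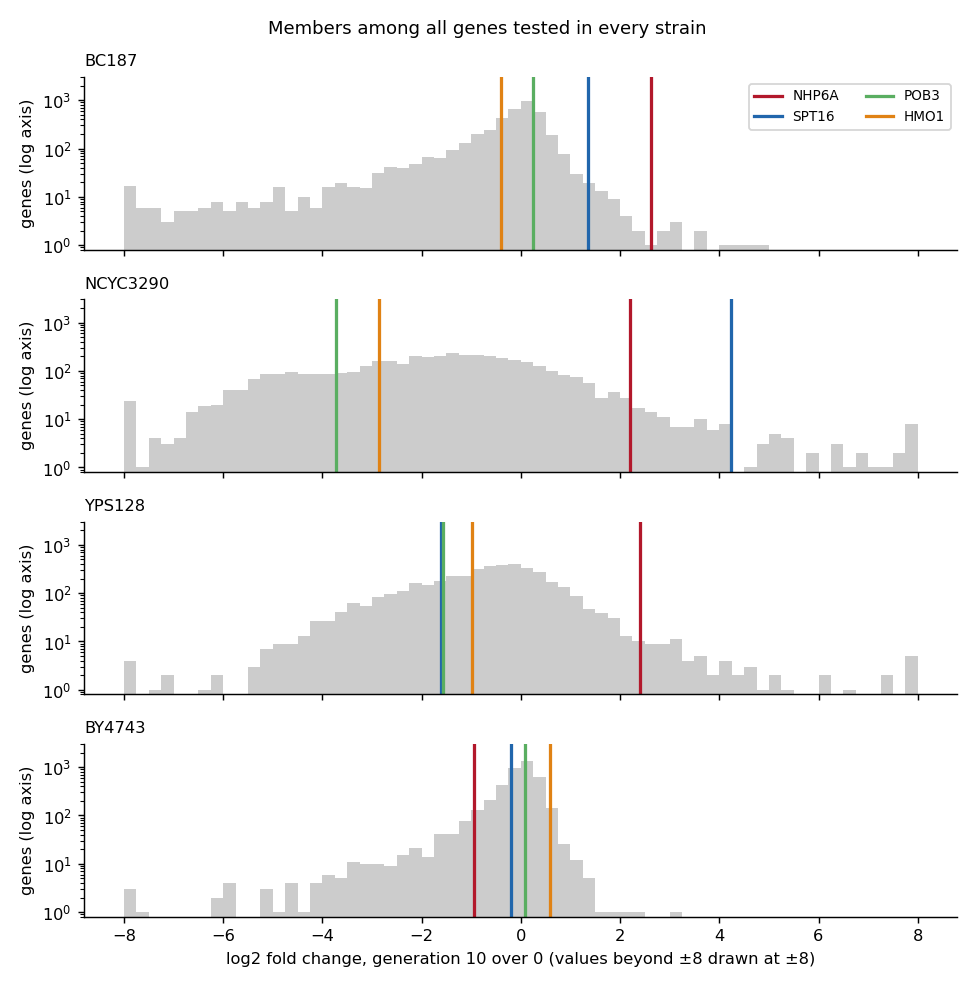
Number of genes (y axis, logarithmic) by log2 fold change of Gen10 over Gen0 (x axis, values beyond 8 in size drawn at 8) for the 4140 genes tested in every strain, with 4 barcodes as coloured lines. NHP6A lies in the right tail in BC187 (2.63), NCYC3290 (2.21) and YPS128 (2.40) and left of the peak in BY4743 (-0.94).

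Whether the change differed between strains was tested in 1 joint fit of the 24 libraries, by an F test over all 3 interaction terms. All 3 tested members passed, where 41.3% of 4215 genes did. The FDR was 7.6e-05 for SPT16, 0.0039 for POB3 and 0.00020 for HMO1. The joint fit uses 1 spread for all strains. With limma voom and a weight for each group, which lets the spread differ, the FDR values were 6.9e-12, 0.047 and 1.3e-05, where 60.6% of genes passed. With TMM factors only SPT16 passed, at 1.8e-05, with 0.18 for POB3 and 0.059 for HMO1.

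Against BY4743 the SPT16 change was higher by 4.43 in NCYC3290 (SE 0.82, FDR 0.00018), where 3.68% of genes were called higher. By voom it was 4.00 (SE 0.32, FDR 1.5e-09), where 2.09% were. The difference was 1.55 in BC187 (SE 0.79, FDR 0.88) in the edgeR joint fit, where 0.214% of genes were called higher. It was 1.54 (SE 0.14, FDR 4.3e-09) by voom with group weights, where 15.1% were. In YPS128 the difference was -1.36 (SE 0.79, FDR 0.38), with a voom FDR of 0.25. For YPS128 edgeR called 1.33% of genes higher and 1.9% lower, and voom 3.89% and 7.07%.

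The HMO1 change was lower in NCYC3290 than in BY4743 (difference -3.45, SE 0.54, FDR 2.8e-05), where 38.6% of genes were called lower. By voom the NCYC3290 difference was -3.62 (SE 1.55, FDR 0.12), where 0.522% of genes were called lower. In BC187 it was -0.99 (SE 0.51, FDR 0.90) by edgeR, where 1.02% were called lower, and -0.99 (SE 0.14, FDR 1.8e-06) by voom, where 28.2% were. In YPS128 it was -1.57 (SE 0.52, FDR 0.10), with a voom FDR of 0.066. For POB3 the difference from BY4743 was -3.79 in NCYC3290 (SE 0.91, FDR 0.0020, voom FDR 0.23), -1.67 in YPS128 (SE 0.82, FDR 0.29) and 0.16 in BC187 (SE 0.81, voom 0.17, FDR 0.53). These contrasts share the BY4743 libraries. For NHP6A the differences, given as a description, from BY4743 were 3.58 for BC187, 3.15 for NCYC3290 and 3.35 for YPS128, each with an SE of 0.47.

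The starting pools held the NHP6A plasmid at similar levels. At Gen0 it had 204 ± 27 normalised reads in BC187, 222 ± 18 in NCYC3290, 186 ± 54 in YPS128 and 223 ± 15 in BY4743 (SD, n = 3 each), and neighbours in this order overlapped. SPT16 was spread more widely, with 97.7 ± 4.0 in BC187, 188 ± 13 in NCYC3290, 42.1 ± 11 in YPS128 and 244 ± 5.5 in BY4743. Each step in that order exceeded the spread between replicates. POB3 stood at 78.0 ± 4.6 in BC187, above 34.8 ± 6.2 in NCYC3290, 39.3 ± 4.9 in YPS128 and 38.1 ± 1.8 in BY4743, which did not differ beyond their spread. HMO1 had 186 ± 9.8, 171 ± 1.2, 225 ± 75 and 174 ± 6.9 in the same strain order, all within the spread of YPS128.

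NHP10 and ROX1 were too rare to follow. NHP10, the INO80 subunit gene, had 56 reads over the 24 libraries, at most 13 in any, and neither level nor direction could be read from it. ROX1, the repressor of hypoxic genes, had 71 reads in all. In BY4743 it had 0 reads in each of the 3 Gen10 libraries, against 7, 12 and 15 at Gen0, and so was at least 3.3-fold lower against a limit of 3 reads per library. In NCYC3290 it had 0 reads in each Gen10 library, against 10, 11 and 7 at Gen0, and at that Gen10 depth a fall was not detectable, because 3 reads there stood for 1.60 to 5.99 normalised reads against a Gen0 mean of 0.551. ROX1 did not pass the filter on low counts in any strain. With no filter the fall in BY4743 had an FDR of 0.013. Reads carry no molecular identifiers, so such limits cover counting error only.

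The genes whose 12 Gen10 scores lay nearest to those of NHP6A, by root mean square difference over 4139 genes, were RTS3 (1.09 on the log2 scale), GCD10 (1.11), VPS24 (1.25), SUT1 (1.28) and CKA1 (1.28). RTS3 encodes a putative component of protein phosphatase 2A, GCD10 a tRNA methyltransferase subunit, VPS24 an ESCRT-III subunit, SUT1 a regulator of sterol uptake and CKA1 a catalytic subunit of casein kinase 2. Their log2 fold changes ran from 0.79 to 1.39 in BC187, 1.82 to 3.34 in NCYC3290 and 1.31 to 3.10 in YPS128. In BY4743 all 5 lay above 0, between 0.28 and 0.69, unlike NHP6A at -0.94. The directions of NHP6A were not particular to it. Among the 4140 genes tested in every strain, ERG24, LAC1, ORM1, QDR2 and YMR155W also had fitted rises in all 3 wild strains. Each of those had a called fall in BY4743. By the same measure SPT16 was 902nd, HMO1 2271st and POB3 2942nd in distance from NHP6A.

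Genes that work with the members were followed as 5 lists. Their calls are given only for library totals that leave out dominant barcodes. Of 22 histone chaperone and Spt factor genes, 16 were tested in each strain. In BC187 5 rose and 6 fell, in NCYC3290 0 and 3, in YPS128 0 and 2, and in BY4743 2 and 6. The shares of all genes that rose and fell were 28.5% and 38.1% in BC187, 1.89% and 26.1% in NCYC3290, 4.11% and 8.47% in YPS128, and 18.2% and 19.5% in BY4743. Their median log2 fold change was -0.05 in BC187, -1.56 in NCYC3290, -0.38 in YPS128 and -0.16 in BY4743, against -0.05, -1.58, -0.56 and 0.01 over all genes tested. The largest called changes were falls of HIR2 in BC187 (-3.85, SE 0.38, FDR 3.4e-05) and HIR1 in YPS128 (-1.95, SE 0.43, FDR 0.029), both of the HIR histone chaperone. Uncalled genes had lower values in YPS128, down to -2.59 for PSH1. In NCYC3290 it was a fall of the chromatin assembly factor gene CAC2 (-4.47, SE 1.09, FDR 0.020), with at most 11 reads in any Gen10 library. In BY4743 it was a fall of SPT21, which activates histone genes, with 64.7 normalised reads at Gen10 against 197 at Gen0 (-1.61, SE 0.14, FDR 0.00012).

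For the INO80 complex, the partners of Nhp10, 8 of 14 genes were tested. In BC187 1 rose and 2 fell, in NCYC3290 0 and 2, in YPS128 0 and 1, and in BY4743 0 and 2. Among all genes, rises made up 28.5% in BC187, 1.89% in NCYC3290, 4.11% in YPS128 and 18.2% in BY4743. Falls made up 38.1%, 26.1%, 8.47% and 19.5% in the same strain order. IES5 had at most 3 reads in each Gen10 library of BC187 and was at least 17.3-fold lower there, and its log2 fold change in BY4743 was -1.97 (SE 0.39, FDR 0.0065). IES2 fell in NCYC3290 (-4.97, SE 0.91, FDR 0.0074), with at most 9 reads in any Gen10 library. ARP4, an actin-related protein of several remodellers, fell in YPS128 (-1.85, SE 0.44, FDR 0.035). The list's medians were 0.08 in BC187, -1.52 in NCYC3290, -0.61 in YPS128 and -0.02 in BY4743.

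For mitochondrial DNA maintenance, the setting of Abf2, 13 of 15 genes were tested. In BC187 2 rose and 6 fell, in NCYC3290 0 and 1, in YPS128 0 and 1, and in BY4743 3 and 2. Among all genes, rises made up 28.5% in BC187, 1.89% in NCYC3290, 4.11% in YPS128 and 18.2% in BY4743. Falls made up 38.1%, 26.1%, 8.47% and 19.5% in that order. PIF1, a DNA helicase of the nucleus and mitochondria, fell in BC187 (-3.62, SE 0.13, FDR 1.1e-07) and in BY4743 (-1.74, SE 0.10, FDR 1.5e-05). SUV3, a mitochondrial RNA helicase gene, fell in NCYC3290 (-3.28, FDR 0.036), with at most 12 reads in any Gen10 library. ILV5, an amino acid synthesis gene whose product also stabilises mitochondrial DNA, fell in YPS128 (-2.77, FDR 0.049). PIF1 had a lower value in YPS128 that was not called (-3.68). The medians were -0.31 in BC187, -1.31 in NCYC3290, -0.95 in YPS128 and 0.09 in BY4743.

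For hypoxic gene control, the setting of Rox1 and Ixr1, 9 of 12 genes were tested. In BC187 2 rose and 3 fell, in NCYC3290 0 and 3, in YPS128 0 and 1, and in BY4743 3 and 0. Among all genes, rises made up 28.5% in BC187, 1.89% in NCYC3290, 4.11% in YPS128 and 18.2% in BY4743. Falls made up 38.1%, 26.1%, 8.47% and 19.5% in these strains. TUP1, the general corepressor that works with Rox1, was at least 23.4-fold lower in BC187, with at most 1 read in each Gen10 library, and at least 4.90-fold lower in NCYC3290, with 0 reads in each. DAN1, an anaerobic cell wall gene, fell in YPS128 (-1.17, SE 0.23, FDR 0.021), where MOT3 (-2.11) and TUP1 (-1.37) had lower values that were not called. COX5B, a hypoxic cytochrome oxidase subunit gene, rose in BY4743 (0.38, SE 0.07, FDR 0.0040). The medians were -0.09, -1.94, -0.28 and 0.15 in BC187, NCYC3290, YPS128 and BY4743.

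For transcription of ribosomal protein genes and ribosomal DNA, the setting of Hmo1, 13 of 14 genes had a row, of which 12 were tested in BC187 and 11 in each other strain. In BC187 4 rose and 4 fell, in NCYC3290 0 and 2, in YPS128 0 and 3, and in BY4743 2 and 3. The shares over all genes were 28.5% and 38.1% in BC187, 1.89% and 26.1% in NCYC3290, 4.11% and 8.47% in YPS128, and 18.2% and 19.5% in BY4743. SFP1, an activator of ribosomal protein genes, was the largest called change in the 3 wild strains. It had 31.1 normalised reads at Gen10 against 223 at Gen0 in BC187 (-2.84, SE 0.21, FDR 4.8e-06), 5.29 against 210 in NCYC3290 (-5.42, SE 0.93, FDR 0.0066) and 27.7 against 206 in YPS128 (-2.88, SE 0.64, FDR 0.029). In NCYC3290 SFP1 had at most 5 reads in any Gen10 library. Its value in BY4743 was also below 0 but was not called (-0.92, SE 0.32, FDR 0.056). In BY4743 the largest called change was a fall of IFH1, a coactivator of the same genes (-1.71, SE 0.14, FDR 0.00011). The list's median was 0.12 in BC187, 0.69 in NCYC3290, -0.43 in YPS128 and -0.06 in BY4743. Over all genes tested it was -0.05, -1.58, -0.56 and 0.01 in the same strain order.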

How the data were processed

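Plasmid barcodes were counted by sequencing in 24 libraries. Plasmids were isolated by the authors, and indexed PCR products of the barcodes were run single-end on 3 lanes. The deposited values are raw counts of reads for each barcode, without normalisation, and the tool that assigned reads to barcodes is not given in the sources used here. Columns were matched to samples by title (0 columns were left without a sample), and 4811 of 4817 gene names matched RefSeq R64. Positions are those of that assembly.

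Library sizes were totals that left out 25 genes with more than 50000 reads in any sample, after the study's approach. Within each strain Gen10 was compared with Gen0 by edgeR 4.0.16 (R 4.3.3, quasi-likelihood F test) on the counts, with rare barcodes removed by filterByExpr (minimum count 10). The SE of a log2 fold change is its size over the square root of F. Strains were compared in 1 joint fit with 8 group means, with limma 3.58.1 voom as an alternative. DESeq2 1.42.0, TMM, all-read library sizes, no filter, a replicate block and fits without 1 library were the other alternatives. Scores used a pseudocount of 1 normalised read. Scripts were tested on simulated data. Genes were named by rule: all members, the neighbours of NHP6A, its 5 nearest genes by score, and the called gene with the largest change in each list and strain. Genes with a called fall in BY4743 and fitted rises in all wild strains were named in addition. The members and lists were chosen with earlier results of these data known. No 2 replicates agreed within sampling noise (chi-square per degree of freedom 5.13 or more).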

Additional observations from a re-analysis of the deposited data

Results flagged for a closer look

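Some of these genes changed differently between strains. In the joint edgeR fit the strain-by-generation F test gave an FDR of 7.634e-05 for SPT16, 0.003914 for POB3 and 0.0002016 for HMO1. Of all 4215 genes tested, 41.3% passed. With TMM factors SPT16 passed, and POB3 (FDR 0.18) and HMO1 (FDR 0.059) did not. SPT16 rose in BC187 and NCYC3290 and was not called in YPS128 or BY4743. POB3 was called lower in NCYC3290 and not called in the other strains. HMO1 rose in BY4743 and fell in BC187 and NCYC3290. The calls in NCYC3290 did not hold under every scaling. That of SPT16 was lost with all reads counted, and those of POB3 and HMO1 were lost with TMM and DESeq2.

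NHP6A moved in opposite directions. Its lowest Gen10 score in the 9 wild libraries was 1.69 and its highest in the 3 BY4743 libraries was -0.767, both on the log2 scale. This difference was not tested, because NHP6A was chosen for it, and in NCYC3290 and YPS128 the sign turned when libraries were scaled to all reads.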

How the results depend on the processing

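Counts are over the members other than NHP6A. With TMM factors 2 rose in BC187, 0 fell in NCYC3290 and 1 differed between strains, against 1, 2 and 3. With DESeq2 2 rose in BC187, 0 fell in NCYC3290 and 1 fell in BY4743, against 0 by edgeR. With all reads 0 rose in NCYC3290 and 3 fell in YPS128, and NHP6A had log2 fold changes of -1.68 in NCYC3290 and -0.83 in YPS128. With no filter 1 fell in BY4743 (ROX1). In the joint fit of 24 samples 0 rose and 0 fell in BC187 and 0 rose in BY4743. That fit pools the spread of all strains.

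Leaving out 1 library at a time gave 1 to 2 rises in BC187, 0 to 2 falls in NCYC3290 and YPS128, and 0 to 1 falls in BY4743. The 2 calls in NCYC3290 were lost without any Gen0 library while the values stayed between -3.87 and -3.61 (POB3) and -2.86 and -2.85 (HMO1), and the calls in YPS128 (SPT16 and HMO1) appeared without Gen10 replicate 2. In BY4743 the fall was SPT16 without Gen10 replicate 3 and ROX1 without Gen10 replicate 1 or 2. ROX1 had 0 reads at Gen10 there, so it then passed the filter on its Gen0 reads alone. The filter thus fixed the direction of ROX1, and nothing was read from that call. POB3 in BY4743, never called, ranged from -0.035 to 0.21. All 24 such joint fits kept the F test of SPT16, POB3 and HMO1 under 0.05.

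Replicate numbers did not pair the samples. Of 12 same-numbered pairs, 1 had a correlation of deviations over 0.1 (range -0.417 to 0.117), and 2 Gen10 libraries correlated best with their own number. With a replicate block 1 member fell in NCYC3290 in place of 2 (HMO1, FDR 0.083), and no other call of a member changed. Depth limits NCYC3290 most, where POB3 rested on 10 reads at Gen10.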
